A study of Mus musculus with 17 samples.

Results

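The mouse kidney expresses a set of cytochrome P450 genes of family 4 that hydroxylate fatty acids at or near the methyl end of the chain. Their transcripts were followed in 8 genes, Cyp4a10, Cyp4a12a, Cyp4a12b, Cyp4a14, Cyp4a31, Cyp4a32, Cyp4b1 and Cyp4f14, out of 42794 genes in the deposited table. The 8 were taken by gene name from a family chosen by its FPKM in the 3 groups, which was known beforehand. Their differences between groups are therefore given as description, without a p-value. Which of them passed a threshold in a fit over all genes is listed further below and is not read as support. A further 18 genes in the table carry a Cyp4 name and are described after them.

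RNA came from mouse kidney in 17 libraries. Of these, 7 had titles beginning DKD_shRNA and the genotype Gcgr shRNA. Gcgr encodes the receptor for glucagon, and the design text describes its knockdown by hairpin RNA as specific to proximal tubule cells. Another 6 had titles beginning DKD_Vehicle but the genotype Ctr shRNA, so it is unclear from the labels which of the control treatments they had, hairpin or vehicle. The last 4, titled NC, had the genotype WT. The series concerns diabetic kidney disease, and the study asked what glucagon does to lipid handling in proximal tubule cells. Not given in the sources used here are how disease was induced, how the hairpin was delivered, which promoter or vector carried it, and the strain, age and sex of the mice. The labels do not tie libraries to animals, and a p-value below covers only the variation from library to library, which may be technical. A library goes by its group with its title's number, as in NC 38.

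Levels are deposited FPKM, which scales fragments by the length of the gene and the size of the library, and libraries held 13997657 to 17107876 recovered reads. The library size implied by the FPKM was 0.949 to 1.15 times these reads. It was highest in DKD_Vehicle 20, with the next at 1.04, so the FPKM of DKD_Vehicle 20 are lower for the same share of reads. Gcgr, the targeted gene, spanned 11.0 to 15.7 FPKM in the 7 libraries labelled DKD_shRNA (median 13.2) and 5.89 to 11.8 FPKM in the 6 DKD_Vehicle libraries (median 10.4). It was at 21.5, 18.3, 19.4 and 23.8 FPKM in the 4 NC libraries. Its level in the libraries labelled DKD_shRNA was thus above that in DKD_Vehicle on average, at 13.02 ± 1.70 FPKM (SD, n = 7) against 9.74 ± 2.14 (n = 6). This is not the direction that the label would give. The knockdown is described as specific to proximal tubule cells and the RNA is of bulk kidney, so these values cannot show whether the label is right. The lowest DKD_Vehicle value, 5.89 FPKM, was that of DKD_Vehicle 20, and the next was 8.80. The DKD_Vehicle 20 library held fat and urothelial transcripts. The summed FPKM of 7 fat markers was 691 there and at most 47.5 in the other 16 libraries, and that of 9 urothelial markers was 210 there and at most 14.4 elsewhere. The kidney origin was plain in all groups, since the proximal tubule phosphate transporter Slc34a1 stood at 867 to 1183 FPKM in the libraries labelled DKD_shRNA, 850 to 1257 in DKD_Vehicle and 993 to 1535 in NC.

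Cyp4 enzymes sit in the endoplasmic reticulum, take electrons from the reductase Por and place a hydroxyl group on the terminal carbon of a fatty acid. The product can be oxidised further to a dicarboxylic acid, which peroxisomes shorten, or, when arachidonic acid is the substrate, it acts on vessels and tubules as a hydroxyeicosatetraenoic acid. In rodents Cyp4a10 and Cyp4a14 are classic targets of the fatty acid receptor PPAR alpha, Cyp4a12a is the androgen-dependent arachidonic acid hydroxylase of the male mouse kidney, and Cyp4b1 oxidises shorter fatty acids and activates some xenobiotics.

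Of the 8 genes, 7 lie in a cluster on chromosome 4 of GRCm38 between 115299046 and 115647723, and Cyp4f14 lies on chromosome 17 at 32905071 to 32917342, on the minus strand. Cyp4a14 (115486200 to 115496142) and Cyp4b1 (115624725 to 115647723) are on the minus strand, and the other 5 are on the plus strand. Cyp4a12a spans 115299046 to 115332815, Cyp4a12b 115411624 to 115439034, Cyp4a10 115518264 to 115533649, Cyp4a31 115563649 to 115579015 and Cyp4a32 115600969 to 115621602.

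The coding bases around the haem-binding cysteine, the catalytic core of every P450, show how closely the copies resemble each other. They were read from GENCODE M21 transcripts of GRCm38, where the motif was found once in each gene, and capitals mark bases unlike Cyp4a10. The 30 bases are joined across an intron in each gene. They run between chr4:115529502-115532543 for Cyp4a10, chr4:115574950-115577948 for Cyp4a31, chr4:115614880-115621446 for Cyp4a32, chr4:115328986-115331846 for Cyp4a12a and chr4:115435240-115438069 for Cyp4a12b on the plus strand. On the minus strand they run between chr4:115487299-115489805 for Cyp4a14, chr4:115625216-115625662 for Cyp4b1 and chr17:32905666-32906065 for Cyp4f14.
Cyp4a10: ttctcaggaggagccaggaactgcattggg
Cyp4a31: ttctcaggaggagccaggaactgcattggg
Cyp4a32: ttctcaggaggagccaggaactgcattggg
Cyp4a14: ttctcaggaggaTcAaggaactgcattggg
Cyp4a12a: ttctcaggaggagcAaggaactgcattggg
Cyp4a12b: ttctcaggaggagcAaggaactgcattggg
Cyp4b1: ttTtcTgCaggGCccaggaaTtgcattggg
Cyp4f14: ttctcGgCGggaCccaggaactgcatAggA
Cyp4a10, Cyp4a31 and Cyp4a32 were identical over these bases, Cyp4a12a and Cyp4a12b were identical to each other, and Cyp4a14 differed from Cyp4a10 at 2 bases.

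Over the whole coding sequence Cyp4a12a and Cyp4a12b were 98.5% identical, with 23 substitutions. Cyp4a10 was 97.2% identical to Cyp4a32 and 96.6% identical to Cyp4a31, but 75.6% to Cyp4a14, 60.6% to Cyp4b1 and 58.4% to Cyp4f14. Reads can tell the near copies apart only where they differ, as in the most unlike 60 coding bases of each pair, shown here with the differing bases in capitals. For Cyp4a10 and Cyp4a31 these lay at chr4:115518427-115518486 and chr4:115563822-115563881, on the plus strand.
Cyp4a10: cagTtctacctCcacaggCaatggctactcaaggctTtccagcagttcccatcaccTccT
Cyp4a31: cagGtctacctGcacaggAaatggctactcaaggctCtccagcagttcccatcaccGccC
For Cyp4a10 and Cyp4a32 they lay at chr4:115519640-115519699 and chr4:115602270-115602329, on the plus strand.
Cyp4a10: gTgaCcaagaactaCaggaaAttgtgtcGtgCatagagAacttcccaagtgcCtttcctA
Cyp4a32: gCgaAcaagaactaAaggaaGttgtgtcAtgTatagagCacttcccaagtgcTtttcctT
For Cyp4a12a and Cyp4a12b they lay at chr4:115326628-115326687 and chr4:115432881-115432940, on the plus strand.
Cyp4a12a: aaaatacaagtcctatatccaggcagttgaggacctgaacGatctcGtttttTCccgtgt
Cyp4a12b: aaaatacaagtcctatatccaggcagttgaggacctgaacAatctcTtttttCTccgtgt
The 3 stretches hold 6, 9 and 4 differences.

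Of all 100-base windows of a transcript, 35.8% of Cyp4a12a, 36.2% of Cyp4a12b, 20.1% of Cyp4a32, 12.7% of Cyp4a10 and 8.22% of Cyp4a31 were found unchanged in another Cyp4 gene. The share was 4.46% for Cyp4b1, which shares them with its pseudogenes, and 0% for Cyp4a14 and Cyp4f14. The sources used here do not say how reads matching several copies were assigned, so values of Cyp4a10, Cyp4a31, Cyp4a32, Cyp4a12a and Cyp4a12b are uncertain as to the split between copies, and sums over copies are given beside them. The GENCODE transcript of Cyp4a32 holds the 1530 coding bases alone, unlike those of its copies.

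**Figure D1:**
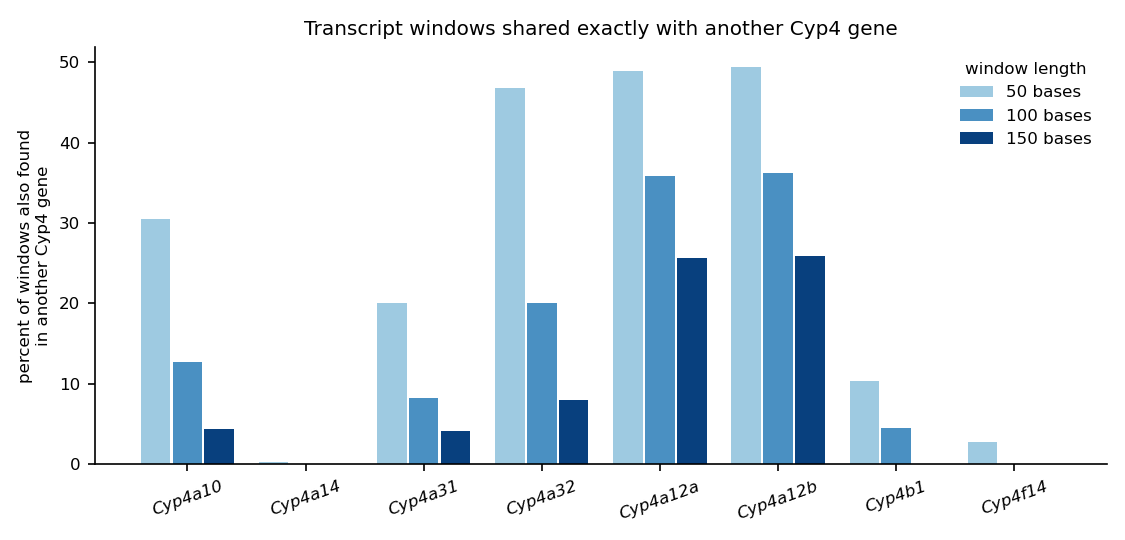
Percent of all windows of a transcript (y axis) that occur unchanged in another Cyp4 gene, for windows of 50, 100 and 150 bases, in 8 genes (x axis). At 100 bases Cyp4a12a and Cyp4a12b stand highest at 35.8% and 36.2%, and Cyp4a14 is at 0%.

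FPKM is scaled by gene length, so levels can be set between genes, but for the near copies only with caution. Their reads may have been split between copies, and the transcript of Cyp4a32 holds its coding bases alone, so their places in the order are uncertain. Cyp4b1 was the most abundant of the 8 in every group and ranked 19 of the table by mean FPKM over the 17 libraries, while Cyp4a10, Cyp4a14 and Cyp4a31 ranked 122, 208 and 218. In the libraries labelled DKD_shRNA the order by mean was Cyp4b1, Cyp4a10, Cyp4a31, Cyp4a14, Cyp4a12a, Cyp4a12b, Cyp4a32 and Cyp4f14, and the ranges of Cyp4a10, Cyp4a31 and Cyp4a14 overlapped, as did those of Cyp4a14 and Cyp4a12a. In DKD_Vehicle Cyp4a14 came before Cyp4a31, and neighbours from Cyp4a10 to Cyp4a31 overlapped. In NC Cyp4a12a came before Cyp4a14, and Cyp4a10 and Cyp4a31 were the only neighbours with overlapping ranges.

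**Figure D2:**
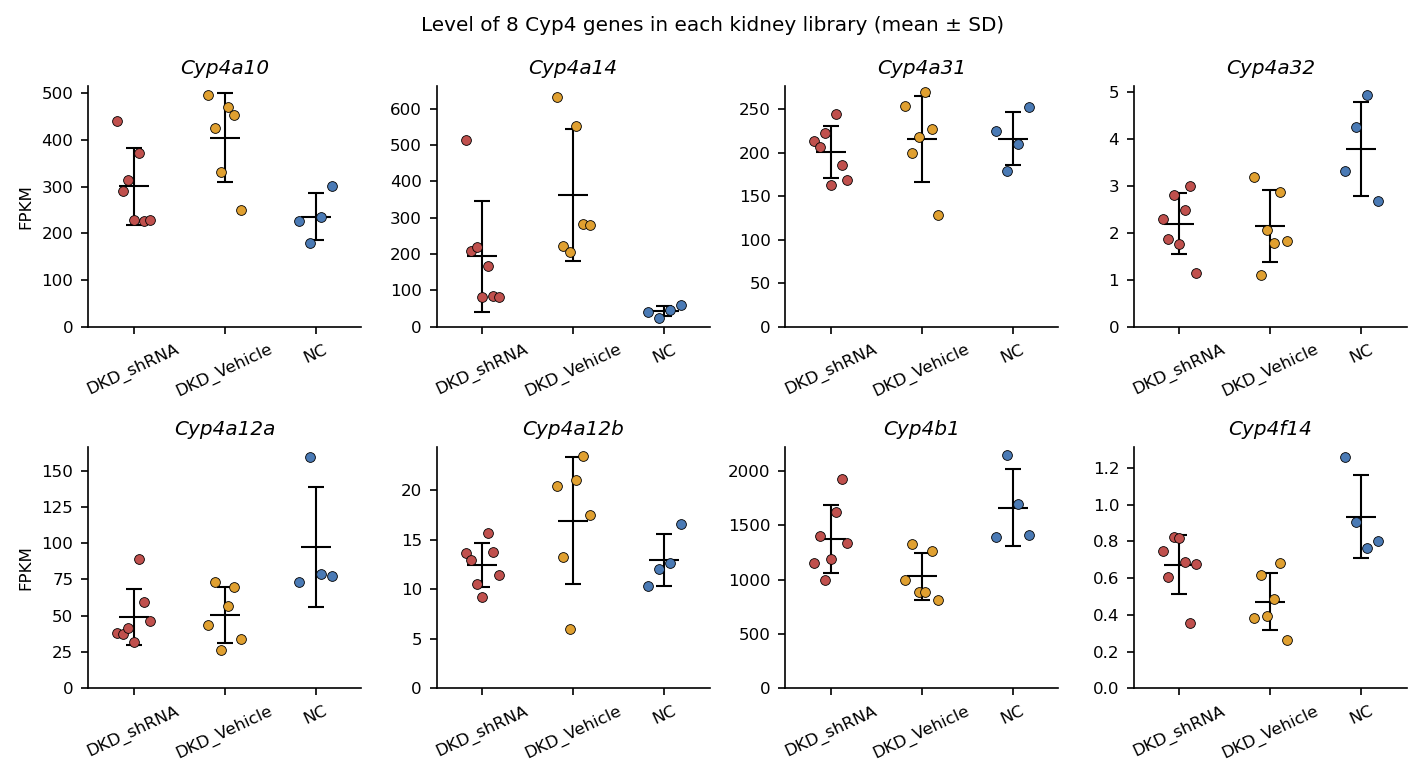
FPKM (y axis, linear from 0) of the 8 genes in each library, by group (x axis). Points are libraries and bars are the mean ± SD. All 13 DKD points of Cyp4a14 lie above the 4 NC points, and all 6 DKD_Vehicle points of Cyp4a12a lie below the NC points. Summed with its near copy Cyp4a12b, which is not shown, DKD_Vehicle and NC overlap.

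Cyp4a14, the PPAR alpha-inducible fatty acid hydroxylase of the cluster, showed the widest separation. Its level spanned 83.3 to 513 FPKM in the libraries labelled DKD_shRNA, with a median of 167. In DKD_Vehicle it spanned 207 to 632 FPKM, with a median of 282, and the 4 NC libraries were at 40.6, 24.9, 47.6 and 60.7 FPKM. Every DKD library was above every NC library, and the 2 DKD groups overlapped. The mean was 195 ± 153 FPKM (SD, n = 7) in the libraries labelled DKD_shRNA, 363 ± 182 (n = 6) in DKD_Vehicle and 43.5 ± 14.9 (n = 4) in NC. DKD_Vehicle was 8.35 times NC and the libraries labelled DKD_shRNA 4.48 times NC by mean FPKM. On the log2(FPKM + 1) scale the fitted differences were 2.96 ± 0.46 (SE) for DKD_Vehicle minus NC, 1.90 ± 0.45 for DKD_shRNA minus NC and -1.06 ± 0.40 for DKD_shRNA minus DKD_Vehicle.

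Within both DKD groups Cyp4a14 was uneven. DKD_shRNA 13 stood at 513 FPKM, with the next library of its group at 219, and DKD_Vehicle 1 and 8 stood at 632 and 552, with the other 4 between 207 and 283. Of the 7 libraries labelled DKD_shRNA, 4 lay below the whole DKD_Vehicle range. Without DKD_shRNA 13 the difference from DKD_Vehicle was -1.35, and without DKD_Vehicle 1 it was -0.88, on the log2(FPKM + 1) scale.

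Cyp4a10, which shares substrates and regulation with Cyp4a14 but is far more abundant in NC kidneys, moved over a narrower range. It spanned 226 to 440 FPKM in the libraries labelled DKD_shRNA (median 291) and 249 to 496 in DKD_Vehicle (median 440). The NC libraries were at 227, 179, 234 and 302 FPKM. The 3 groups overlapped, although 5 of 6 DKD_Vehicle libraries exceeded every NC library and the exception was DKD_Vehicle 20, at 249. Means were 300.5 ± 82.3 FPKM in the libraries labelled DKD_shRNA, 404 ± 95.0 in DKD_Vehicle and 235 ± 50.4 in NC. The fitted differences were 0.76 ± 0.22 for DKD_Vehicle minus NC, 0.33 ± 0.21 for DKD_shRNA minus NC and -0.43 ± 0.19 for DKD_shRNA minus DKD_Vehicle.

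Cyp4a31 and Cyp4a32 are the near copies of Cyp4a10, and little is known of their own activity. Cyp4a31 spanned 163 to 245 FPKM in the libraries labelled DKD_shRNA (median 207) and 129 to 269 in DKD_Vehicle (median 222), while the NC libraries were at 224, 179, 209 and 252. The groups lay over each other, with means of 201 ± 29.7, 216 ± 49.5 and 216 ± 30.4 FPKM in the libraries labelled DKD_shRNA, DKD_Vehicle and NC. Cyp4a32 was far lower, at 1.15 to 2.99 FPKM in the libraries labelled DKD_shRNA (median 2.30) and 1.10 to 3.19 in DKD_Vehicle (median 1.94), against 3.31, 4.25, 4.93 and 2.67 in NC. It rested on 26 to 115 reads a library, and its ranges in both DKD groups overlapped that of NC, which held the 3 highest values. The fitted differences from NC were -0.62 ± 0.20 for DKD_Vehicle and -0.59 ± 0.19 for DKD_shRNA. For Cyp4a31 they were -0.03 ± 0.17 and -0.11 ± 0.17, and the sign of the one for DKD_Vehicle turned without DKD_Vehicle 20, at 0.11, and without NC 41, at 0.05.

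The ratio of Cyp4a10 to Cyp4a31 was 1.22 to 2.06 in the libraries labelled DKD_shRNA and 1.52 to 2.14 in DKD_Vehicle, and it was 1.00 to 1.20 in NC. It was above the NC range in every DKD library. Summed over Cyp4a10, Cyp4a31 and Cyp4a32, which depends less on how reads were split between them, the level was 503 ± 107 FPKM in the libraries labelled DKD_shRNA, 622 ± 141 in DKD_Vehicle and 455 ± 79.2 in NC. The fitted difference of DKD_Vehicle minus NC for the sum was 0.43 ± 0.19, smaller than the 0.76 of Cyp4a10 alone.

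Cyp4a12a, the androgen-dependent arachidonic acid hydroxylase, was lower in both DKD groups. It spanned 31.9 to 88.8 FPKM in the libraries labelled DKD_shRNA (median 41.4) and 26.2 to 73.1 in DKD_Vehicle (median 50.1). NC libraries were at 73.3, 159, 79.1 and 77.6 FPKM. All 6 DKD_Vehicle libraries were below all NC libraries, by a margin of 73.1 against 73.3 FPKM at the edge, and 6 of 7 libraries labelled DKD_shRNA were below them too. The fitted differences were -0.95 ± 0.31 for DKD_Vehicle minus NC and -0.97 ± 0.30 for DKD_shRNA minus NC, and they were -0.68 and -0.71 without NC 38, the library at 159 FPKM. Between DKD_shRNA and DKD_Vehicle the difference was -0.02 ± 0.27, and its sign turned when any of 7 libraries was left out.

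Cyp4a12b, the near-identical copy next to it, was not lower in both. It spanned 9.25 to 15.7 FPKM in the libraries labelled DKD_shRNA (median 12.9) and 5.98 to 23.4 in DKD_Vehicle (median 18.98), against 10.4, 12.1, 12.6 and 16.6 in NC. All 3 groups overlapped. The ratio of Cyp4a12a to Cyp4a12b averaged 3.88 ± 0.97 in the libraries labelled DKD_shRNA, 3.27 ± 1.40 in DKD_Vehicle and 7.80 ± 3.73 in NC. Its ranges were 2.79 to 5.66, 1.92 to 5.52 and 4.67 to 13.2 in the same groups, so they overlapped. The highest ratio, 13.2, was that of NC 38. The sum of Cyp4a12a and Cyp4a12b averaged 61.6 ± 21.2 FPKM in the libraries labelled DKD_shRNA, 67.4 ± 23.0 in DKD_Vehicle and 110.2 ± 40.95 in NC. NC 38 stood at 171. The fitted difference of the sum was -0.72 ± 0.29 for DKD_Vehicle minus NC. Unlike Cyp4a12a alone, the sum overlapped between DKD_Vehicle and NC. DKD_Vehicle 4 and 19, at 86.3 and 93.1 FPKM, were above NC 37, at 83.7.

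The make-up of the 6 Cyp4a transcripts differed between groups. Cyp4a14 held 23.1 ± 9.90% of summed Cyp4a FPKM in the libraries labelled DKD_shRNA, 33.3 ± 8.67% in DKD_Vehicle and 7.03 ± 1.83% in NC. Cyp4a12a held 6.89 ± 2.76%, 4.93 ± 1.89% and 16.4 ± 8.14% in the same groups, with the highest share, 28.5%, in NC 38. Cyp4a10 held 40.2 ± 2.79% in the libraries labelled DKD_shRNA, 38.95 ± 5.02% in DKD_Vehicle and 38.4 ± 4.41% in NC. The total of the 6 was 759 ± 250 FPKM in the libraries labelled DKD_shRNA, 1053 ± 303 in DKD_Vehicle and 609 ± 69.2 in NC.

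**Figure D3:**
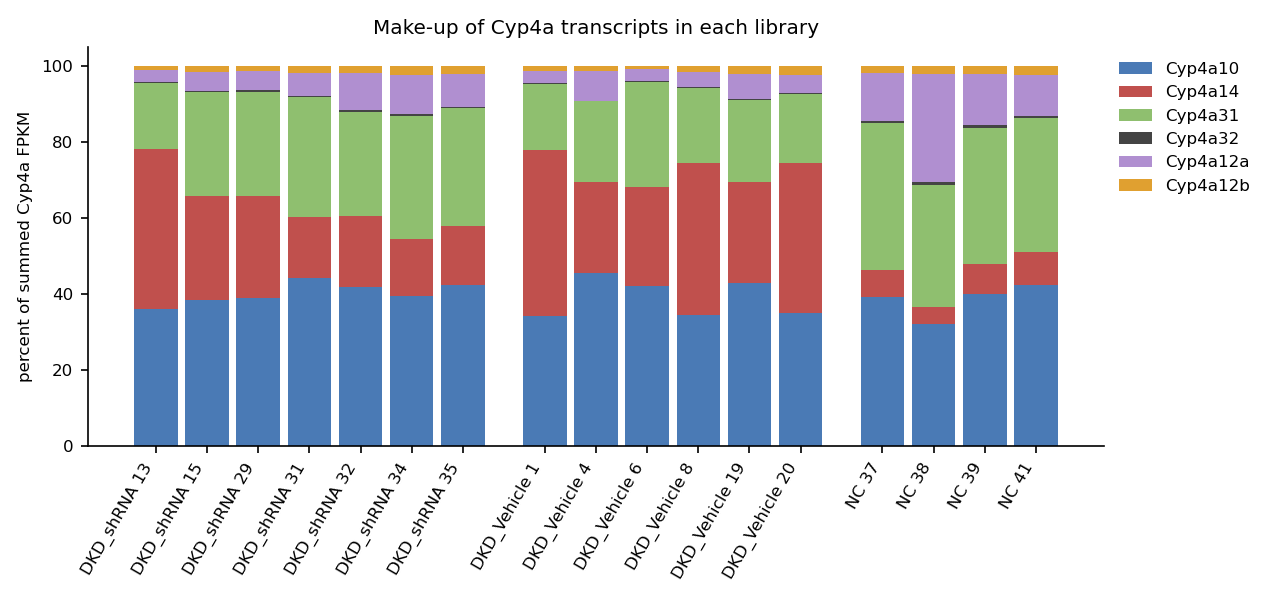
Percent of the summed FPKM of 6 Cyp4a genes (y axis) taken by each gene, in each library (x axis, by group). Cyp4a14 takes up to 42.1% in the libraries labelled DKD_shRNA, up to 43.6% in DKD_Vehicle and up to 8.54% in NC.

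Cyp4b1 ran the other way. It spanned 994 to 1927 FPKM in the libraries labelled DKD_shRNA (median 1341) and 814 to 1331 in DKD_Vehicle (median 946), against 1396, 2149, 1697 and 1408 in NC. Every DKD_Vehicle library was below every NC library, and the libraries labelled DKD_shRNA overlapped both other groups. Means were 1376 ± 315 FPKM in the libraries labelled DKD_shRNA, 1030 ± 215 in DKD_Vehicle and 1662 ± 353 in NC. The fitted differences were -0.69 ± 0.19 for DKD_Vehicle minus NC, -0.28 ± 0.18 for DKD_shRNA minus NC and 0.41 ± 0.16 for DKD_shRNA minus DKD_Vehicle.

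Cyp4f14, a hydroxylase known from mouse liver for acting on vitamin E, was low, at 12 to 43 reads a library. It spanned 0.356 to 0.825 FPKM in the libraries labelled DKD_shRNA (median 0.686) and 0.265 to 0.685 in DKD_Vehicle (median 0.441), against 1.26, 0.904, 0.767 and 0.802 in NC. All DKD_Vehicle libraries were below all NC libraries. It reached an FPKM of 1 in 1 library only, so it did not pass the filter and was not tested.

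Because these are bulk kidneys, fewer cells of a type and less RNA per cell cannot be told apart. The summed FPKM of 18 proximal tubule markers, the segment in which most of these genes are known to be expressed, was 6648 to 8875 in the libraries labelled DKD_shRNA, 5531 to 8419 in DKD_Vehicle and 8168 to 8848 in NC. The low end of DKD_Vehicle was DKD_Vehicle 20, and the other 5 libraries started at 7494. Of the 18, 6 fell in DKD_Vehicle against NC, beside 3.91% of all tested genes, among them Miox, which breaks down inositol, by 0.79 on the log2(FPKM + 1) scale (limma adjusted p = 0.00102), and Slc27a2 and Slc7a13, which also stand in lists below. Without DKD_Vehicle 20, 4 fell and 1 rose. The median difference of DKD_Vehicle minus NC was -0.36 for the proximal tubule markers. Markers of other tubule cells were lower too. Of 8 thick ascending limb markers 3 fell (median -0.52), and of 7 intercalated cell markers 4 fell (median -0.50). Of 6 distal convoluted tubule markers 3 fell (median -0.44), and of 6 tested principal cell markers 3 fell (median -0.37). Without DKD_Vehicle 20 these were 3 (median -0.46), 3 (median -0.42), 2 (median -0.38) and 3 (median -0.55), in the same order. The calls of Umod, Slc12a1, Klhl3, Aqp3 and Atp6v0d2 ended with certain single libraries left out, and the others held. The summed FPKM of 8 macrophage markers was 96.6 to 168 in the libraries labelled DKD_shRNA, 69.6 to 171 in DKD_Vehicle and 68.6 to 91.0 in NC. In DKD_Vehicle against NC 7 of the 8 differences were above 0, with a median of 0.52. Lyz2 (limma adjusted p = 0.00255) and Cd68 (limma adjusted p = 0.0268) rose. The 1 that fell was Csf1r, by 0.95 ± 0.15 on the log2(FPKM + 1) scale (limma adjusted p = 0.00103). The summed FPKM of 6 hepatocyte markers was 200 to 338 in the libraries labelled DKD_shRNA, 98.9 to 241 in DKD_Vehicle and 88.8 to 92.4 in NC. The part of cell make-up in the Cyp4 values was not tested.

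In the fit across all 13279 genes that passed the filter (limma-trend on log2(FPKM + 1), Benjamini-Hochberg adjusted p under 0.05), 7 of the 8 Cyp4 genes were included. In DKD_Vehicle against NC, 3 of the 7 were past the threshold, Cyp4a10 and Cyp4a14 higher and Cyp4b1 lower, beside 7.49% of all genes, 3.58% higher and 3.91% lower. In DKD_shRNA against NC it was 1 of the 7, Cyp4a14, higher, beside 2.02% of all genes, 1.42% higher and 0.595% lower. In DKD_shRNA against DKD_Vehicle none of the 7 was past it, beside 0% of all genes, while 972 genes had an unadjusted p under 0.05 and limma voom on recovered reads also called 0. Nothing is read from these counts, or from how they change with libraries left out or other settings, since the genes were chosen with them known. Ranges of the groups did not overlap for 10.1% of all tested genes in DKD_Vehicle against NC, 4.71% higher and 5.41% lower. They did not overlap for 5.54% in DKD_shRNA against NC, 3.31% higher and 2.23% lower, and for 0.203% in DKD_shRNA against DKD_Vehicle.

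The count of 3 in DKD_Vehicle against NC was 1 without NC 37, NC 38, NC 39 or DKD_Vehicle 8, and then held Cyp4a14 alone. It was 2 without DKD_Vehicle 1, 4, 6 or 20 or DKD_shRNA 15 or 29, and 4 without DKD_Vehicle 19, DKD_shRNA 35 or NC 41. Cyp4a10 was no longer past the threshold without DKD_shRNA 15 or 29, DKD_Vehicle 1, 4, 8 or 19, or NC 37, 38 or 39. It was also not past it when Cyp4a10, Cyp4a31 and Cyp4a32 were summed, with quantile normalization, with only 2 groups in the fit or without a filter. Cyp4b1 was no longer past it without DKD_Vehicle 1, 6, 8 or 20, or NC 37, 38 or 39. In the same comparison Cyp4a32 was past it without DKD_Vehicle 1 or 19, DKD_shRNA 35 or NC 41, and Cyp4a12a without DKD_Vehicle 19. The call of Cyp4a14 in DKD_shRNA against NC ended without DKD_shRNA 15, 29 or 32 or NC 37, 38 or 39. Without DKD_shRNA 32, Cyp4a12a was past the threshold in its place.

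**Figure D4:**
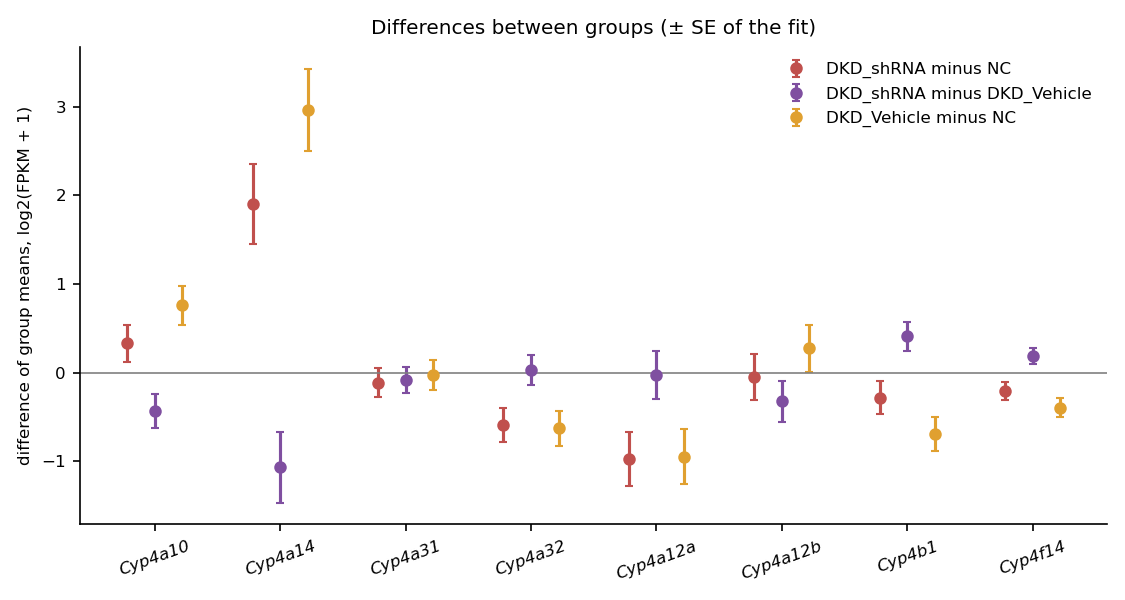
Fitted difference between group means on the log2(FPKM + 1) scale (y axis) for the 8 genes (x axis), with bars of 1 SE, in 3 comparisons. Cyp4a14 lies highest at 2.96 for DKD_Vehicle minus NC, and Cyp4a12a lies near -1 in both comparisons with NC. Cyp4f14, under the filter, is shown from the fit without a filter.

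Of the other 18 genes with a Cyp4 name, 11 are protein coding and 7 are pseudogenes or antisense genes, and 7 passed the filter. Cyp4f16, a fatty acid hydroxylase of the Cyp4f cluster on chromosome 17, averaged 4.06 ± 0.62 FPKM in the libraries labelled DKD_shRNA, 4.16 ± 0.58 in DKD_Vehicle and 2.89 ± 0.25 in NC. It rose in DKD_Vehicle against NC by 0.40 ± 0.10 on the log2(FPKM + 1) scale (limma adjusted p = 0.0255), and the adjusted p was up to 0.0999 when NC 37, 38, 39 or 41 was left out, each of which ended the call. The difference of DKD_shRNA minus NC was 0.37 ± 0.10 (limma adjusted p = 0.0702), and without DKD_shRNA 35 it was 0.43 ± 0.09 (limma adjusted p = 0.0200).

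Cyp4f18, the leukotriene hydroxylase of mouse neutrophils, averaged 1.37 ± 0.48 FPKM in the libraries labelled DKD_shRNA, 1.02 ± 0.40 in DKD_Vehicle and 0.456 ± 0.197 in NC. It rose in DKD_shRNA against NC by 0.69 ± 0.17 (limma adjusted p = 0.0431), a call that ended without DKD_shRNA 13, 29, 31 or 34, DKD_Vehicle 1 or any NC library, with an adjusted p of up to 0.189. In DKD_Vehicle against NC its difference was 0.46 ± 0.17 (limma adjusted p = 0.115). Of the 8 macrophage markers, 1 rose in DKD_shRNA against NC, Lyz2 of macrophages and neutrophils, by 1.32 ± 0.22 (limma adjusted p = 0.00395). Differences of 7 of the 8 were above 0, with a median of 0.54. Csf1r, the receptor for a macrophage growth factor, went the other way, at 10.6 ± 1.40 FPKM in the libraries labelled DKD_shRNA, 7.71 ± 2.08 in DKD_Vehicle and 15.5 ± 1.07 in NC. Its difference of DKD_shRNA minus NC was -0.52 ± 0.14 (limma adjusted p = 0.0776). The part of these cells in the Cyp4f18 values was not tested.

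The other 5 tested genes did not pass the threshold in any comparison. Cyp4f13 averaged 12.7, 12.7 and 13.97 FPKM and Cyp4f17 6.87, 6.71 and 5.90 FPKM in the libraries labelled DKD_shRNA, DKD_Vehicle and NC. Cyp4v3 differed by 0.32 ± 0.14 in DKD_Vehicle minus NC (limma adjusted p = 0.173). Cyp4f15 was at 5.79 FPKM in DKD_Vehicle 20 and at most 0.661 in the rest of its group. Without that library its difference of DKD_Vehicle minus NC was -0.48 ± 0.13 (limma adjusted p = 0.0292). Cyp4b1-ps2, a pseudogene of Cyp4b1, was at 0 FPKM in 5 of 6 DKD_Vehicle libraries and at 6.24 in the sixth. The remaining 11, among them Cyp4x1, Cyp4f39, Cyp4f37, Cyp4a29 and Cyp4a30b, did not pass the filter.

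Genes around the Cyp4 step were taken as lists. Their counts in DKD_Vehicle against NC stand beside 7.49% of all tested genes past the threshold, 3.58% higher and 3.91% lower, and those in DKD_shRNA against NC beside 2.02%. None of the 4 electron donors of Cyp4 enzymes passed the threshold in any comparison. Por averaged 107 ± 14.7 FPKM in the libraries labelled DKD_shRNA, 104 ± 13.1 in DKD_Vehicle and 124 ± 6.20 in NC, and its difference of DKD_Vehicle minus NC was -0.25 ± 0.11 (limma adjusted p = 0.165). Their median difference of DKD_Vehicle minus NC was -0.19, beside 0.0071 over all tested genes.

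Of 25 tested genes that oxidise the hydroxylated acids onward, 1 rose and 2 fell in DKD_Vehicle against NC, 3 of 25 beside 7.49% of all tested genes. Aldh1a1, a cytosolic aldehyde dehydrogenase, rose by 1.69 ± 0.25 (limma adjusted p = 0.000625), at 9.30 ± 2.26 FPKM in DKD_Vehicle against 2.15 ± 0.53 in NC, and it also rose in DKD_shRNA against NC, by 1.21 ± 0.24 (limma adjusted p = 0.0122). The call against NC in DKD_shRNA ended without NC 38 or NC 39. Slc27a2, which activates very long fatty acids, fell by 0.68 ± 0.14 (limma adjusted p = 0.00879), with 776 ± 171 FPKM in DKD_Vehicle and 1217 ± 44.3 in NC. The peroxisomal thiolase Acaa1b fell by 0.53 ± 0.14 (limma adjusted p = 0.0286), a call that ended without DKD_Vehicle 6 or any NC library. The median difference over the 25 was -0.07 for DKD_Vehicle minus NC, and 0.02 without DKD_Vehicle 20. In DKD_shRNA against NC 1 of the 25 rose, and without DKD_Vehicle 20 another 2 fell.

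Of 23 tested PPAR alpha targets, with Cyp4a10 and Cyp4a14 kept out of the list, 2 rose and 1 fell in DKD_Vehicle against NC, and the median difference was 0.22. Plin2, a lipid droplet coat protein, rose by 1.02 ± 0.30 (limma adjusted p = 0.0445), at 85.1 ± 33.1 FPKM in DKD_Vehicle against 39.7 ± 7.55 in NC. The gene that fell was Acaa1b, named above. The call of Plin2 ended without DKD_shRNA 15, 29, 34 or 35, DKD_Vehicle 1, 4 or 6, or any NC library. Without DKD_Vehicle 20, 4 rose and 1 fell.

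None of the 23 passed in the other 2 comparisons. Angptl4, an inhibitor of lipoprotein lipase, averaged 53.4 ± 25.3 FPKM in the libraries labelled DKD_shRNA and 79.8 ± 15.9 in DKD_Vehicle, a difference of -0.69 ± 0.25 (limma adjusted p = 0.533). The list's median was -0.17 for DKD_shRNA minus DKD_Vehicle, beside -0.0043 over all tested genes.

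Of 15 regulators tested, 1 fell in DKD_Vehicle against NC. It was Stat5b, a mediator of growth hormone signalling, by 0.30 ± 0.07 (limma adjusted p = 0.0113), and the call ended without NC 39. Ppara itself averaged 13.4 ± 4.96 FPKM in the libraries labelled DKD_shRNA, 12.1 ± 3.85 in DKD_Vehicle and 13.9 ± 1.47 in NC.

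Of 14 tested enzymes that make or break down other oxylipins, 2 rose and 1 fell in DKD_Vehicle against NC. Ephx1, the microsomal epoxide hydrolase, rose by 1.97 ± 0.13 (limma adjusted p = 1.73e-07) and in DKD_shRNA against NC by 1.61 ± 0.13 (limma adjusted p = 1.34e-06), with 55.2 ± 11.1 FPKM in the libraries labelled DKD_shRNA, 70.9 ± 10.6 in DKD_Vehicle and 17.2 ± 1.64 in NC. Ptges3, a co-chaperone that is also a prostaglandin E synthase, rose by 0.50 ± 0.14 (limma adjusted p = 0.0435), and the call ended without DKD_Vehicle 1, 4, 6 or 19 or NC 37, 38 or 39. Cyp2j11, of the epoxygenase family Cyp2j, fell by 0.74 ± 0.18 (limma adjusted p = 0.0176), and the call ended without NC 38.

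Cyp4a12a is one of the genes known to be higher in male than in female mouse kidney. Of 12 other such genes, 5 fell in DKD_Vehicle against NC, beside 3.91% of all tested genes, with a median of -0.79, beside 0.0071 over all tested genes. Cyp2d9 fell by 1.56 ± 0.25 (limma adjusted p = 0.00125), the solvent-metabolising P450 Cyp2e1 by 1.12 ± 0.17 (limma adjusted p = 0.00110), the amino acid transporter Slc7a13 by 1.16 ± 0.28 (limma adjusted p = 0.0193) and the acyl-CoA synthetase Acsm3 by 0.75 ± 0.20 (limma adjusted p = 0.0316). The call of Slc7a13 ended without NC 38, and that of Acsm3 without DKD_Vehicle 1 or 4 or any NC library. In DKD_shRNA against NC 1 of the 12 fell, Cyp2d9, by 1.01 ± 0.24 (limma adjusted p = 0.0362), a call that ended without DKD_shRNA 13, 15, 29, 31, 34 or 35 or any NC library. Without DKD_Vehicle 20, 3 of the 12 fell.

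Of 3 genes known to be higher in female kidney, none passed in DKD_Vehicle against NC, and Prlr, the prolactin receptor, rose in DKD_shRNA against NC by 0.95 ± 0.15 (limma adjusted p = 0.00244). Of 4 tested genes on the Y chromosome none passed in any comparison. The summed FPKM of these 4 with Xist was 21.4 to 26.0 in the libraries labelled DKD_shRNA, 19.7 to 28.3 in DKD_Vehicle and 23.5 to 26.1 in NC, and Xist was at most 0.0161 FPKM in any library. By these transcripts every library was of male kidney, although the sources used here do not give the sex. No gene of these lists passed in DKD_shRNA against DKD_Vehicle.

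**Figure D5:**
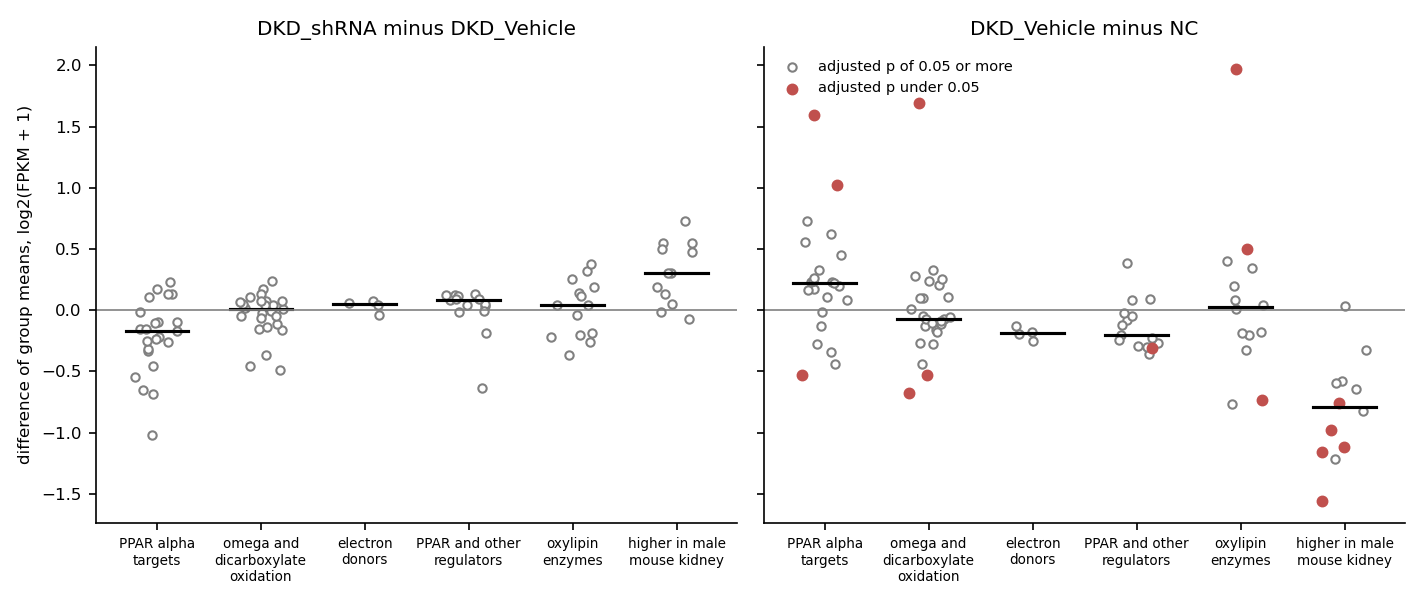
Fitted difference on the log2(FPKM + 1) scale (y axis) of each tested gene of 6 lists (x axis), for DKD_shRNA minus DKD_Vehicle and DKD_Vehicle minus NC. Filled points have an adjusted p under 0.05, and bars are list medians. For DKD_Vehicle minus NC the median is 0.22 for PPAR alpha targets and -0.79 for genes higher in male kidney.

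Over the 17 libraries, after each group's mean was taken out, the levels of Cyp4a10 and Cyp4a14 varied together (Spearman's rho 0.792, Pearson's r 0.793), as did those of Cyp4a10 and Cyp4a31 (rho 0.848, r 0.848). Cyp4b1 went with Cyp4a12a (rho 0.689, r 0.770) and against Cyp4a14 (rho -0.407, r -0.427). These are descriptions over 21 pairs of genes, and genes in a library share its depth and cell make-up. Near copies may also share reads. DKD_Vehicle 4 and 19 and DKD_shRNA 32 and 34 were the highest of their groups in both Cyp4b1 and Cyp4a12a. Against recovered reads their implied library sizes were also the lowest of all libraries, at 0.949 to 0.956 times. The part of this in the pairing of Cyp4b1 with Cyp4a12a was not tested.

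The tested genes most like Cyp4a14 in this respect were Ucp2 (rho 0.909), Cyp2s1 (rho 0.831) and Kcnip2 (rho 0.824). For Cyp4a10 they were Tm9sf2 (rho 0.885), Vnn1 (rho 0.868) and Cyp4a31. For Cyp4a31 they were Apoa1 (rho 0.860), Cyp4a10 and Vnn1 (rho 0.841). For Cyp4b1 they were Copb2 (rho 0.919), Cndp1 (rho 0.880) and Slc44a4 (rho 0.877), and for Cyp4a12a Copz2 (rho 0.907), Tmed10 (rho 0.904) and Psmd2 (rho 0.892). For Cyp4a12b the closest was Nsun6 (rho 0.801). Without DKD_Vehicle 20 the rho of Ucp2 with Cyp4a14 was 0.909 and that of Copb2 with Cyp4b1 was 0.906. These genes were picked as the highest among the tested genes, predicted ones left out, over 17 libraries. Such a search finds high rho by itself, and no chance level for it was computed.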

How the data were processed

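Mouse kidney RNA was taken up in Trizol and 17 libraries were prepared by SMARTer mRNA-Seq, as the labels' protocols say. The authors deposited FPKM per gene, with gene lengths, per the file headers. The build, per the submitters' processing notes, is GRCm38, also listed as mm10. Not given in the sources used here are the aligner, the counter, its handling of multiply mapped reads, its use of strand and the read length. After multiplication by gene length, each library's low values, those within 200 steps, lay within 0.05 step of a whole multiple, which gave 13997657 to 17107876 reads per library. The table held 42794 complete gene lines, and 1 incomplete line was left out.

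The scale was log2(FPKM + 1), on which the changes of low genes are understated. The 13279 genes that reached an FPKM of 1 in 4 libraries or more were fitted with limma-trend (limma 3.58.1, R 4.3.3), with a mean for each of the 3 groups, and p-values were adjusted by Benjamini-Hochberg over all of them at a threshold of 0.05. Cyp4f14 was under the filter, and its difference comes from the fit without a filter. Sequences were read from GENCODE M21 transcripts of GRCm38. The coordinates of 7 of the 8 genes were the same there as in the table, and those of Cyp4f14 differed. Alignments and windows used Python 3.11.15.

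The genes and the lists were chosen with earlier results of these data known. Named beside the 8 genes are every other Cyp4 gene, Gcgr, and up to 4 genes per list past the threshold with the smallest p in each comparison, or up to 2 where none passes. Not every gene that this rule picks is described, the markers among them, some are not reported here, and Slc34a1 and Ppara were named outside it after their values were seen. Likeness is Spearman's rho of log2(FPKM + 1) less the group mean, over tested genes without predicted ones, with the 3 highest taken for each gene with a mean FPKM of 1 or more. The fit was tested on simulated data. Other settings tried were the filter, the pseudocount, scaling, sample weights, the groups in the fit, voom on recovered reads, sums over copies, and each library left out in turn.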

Additional observations from a re-analysis of the deposited data

Results flagged for a closer look

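Of 48 sets of a gene (a Cyp4 gene or Gcgr) and a group, 5 held a library whose gap to its nearest neighbour was large for the range of its group. Chance flags about 1 in 20 sets. Cyp4a14 was at 513 FPKM in DKD_shRNA 13, with the next library at 219. Cyp4a12a was at 159 FPKM in NC 38, with the next at 79.1. Cyp4f15 was at 5.79 FPKM in DKD_Vehicle 20, the library with fat and urothelial transcripts, with the next at 0.661. The pseudogene Cyp4b1-ps2 was at 6.24 FPKM in DKD_Vehicle 1, with the others of that group at 0, and at 9.29 FPKM in NC 39, with the next at 0.187.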

How the results depend on the processing

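In DKD_Vehicle against NC the 994 genes called became 597 without a filter and 2087 with sample weights. The Cyp4 count of 3 became 1 without a filter and 5 with sample weights. It was 4, with Cyp4a12a added, with the same FPKM total and with voom, and 2, without Cyp4a10, with summed copies and with only 2 groups. It was 3 with quantile normalization, with Cyp4a12a in place of Cyp4a10. Of the other Cyp4 genes the count of 1 became 0 without a filter, with a mean FPKM of 5 or more, with the same FPKM total in each library and with voom, and 2 with sample weights or without both DKD_Vehicle 20 and DKD_shRNA 31. The 14 calls in the pathway lists became 7 without a filter and 31 with sample weights. In DKD_shRNA against DKD_Vehicle the count of 0 became 1 with a pseudocount of 0.1, with a mean FPKM of 5 or more or with only those 2 groups in the fit. In DKD_shRNA against NC the 268 genes became 155 without a filter, 154 with a mean FPKM of 5 or more, 1070 with sample weights and 438 with only 2 groups. The Cyp4 count of 1 became 0 without a filter, with quantile normalization and with the same FPKM total, and 3 with sample weights. The count of 1 among other Cyp4 genes became 0 with a pseudocount of 5, without a filter, with a mean FPKM of 5 or more, with the same FPKM total, with voom and without both libraries, and 2 with quantile normalization or sample weights. The 4 calls in the pathway lists became 11 with quantile normalization, 9 with the same FPKM total, 14 with sample weights, 8 with only 2 groups and 7 with voom. The cause was not tested.

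With each library left out, the genes called ran from 458 to 1265 in DKD_Vehicle against NC, 0 to 3 in DKD_shRNA against DKD_Vehicle and 105 to 349 in DKD_shRNA against NC. The Cyp4 count ran from 1 to 4, 0 to 0 and 0 to 1, that of other Cyp4 genes from 0 to 2, 0 to 0 and 0 to 2, and the list calls from 6 to 17, 0 to 0 and 2 to 8. Of 579 values of the Cyp4 differences under alternatives, 573 moved by less than the spread between replicates, and the 6 that moved more were sums over copies. Leaving out 1 library shifts a group mean by only a part of that spread, so most of these values could hardly move more. The calls of Cyp4a10 and Cyp4b1 ended in several of the same settings. The differences of Cyp4a10, Cyp4a14 and Cyp4b1 kept their sign in every alternative. DESeq2 and edgeR were not run, since the deposited values are FPKM. No paired analysis was possible because the groups share no replicate numbers. Cyp4f14 rested on 12 to 43 reads a library, which limits its precision.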
